A study of Mus musculus with 5 samples.

Results

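Olfactory receptor (Olfr) genes form the largest gene family of the mouse genome, and 60 of its 1086 protein-coding genes on the autosomes carried H3K27me3 at the promoter in cultured dermal fibroblasts. These 60 genes were chosen by promoter coverage: at least 500 bp of the 6000 bp around the annotated transcription start site (TSS, ± 3 kb) lay inside a peak in at least 1 of 4 peak lists. The remaining 1026 Olfr genes did not reach that length in any library. The marked share was 5.52%, against 30.04% of the 20594 protein-coding genes outside the family. Promoter coverage chose the genes, so its values are given as a description.

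Olfr genes encode the G protein-coupled receptors through which sensory neurons of the nose detect odorants, and each mature neuron expresses a single receptor. The genes lie in clusters that are silent in other tissues, and in the nose they are known to be packed in constitutive heterochromatin marked by H3K9me3 and H4K20me3. H3K27me3 is another repressive mark, placed by the Polycomb repressive complex PRC2, typically over CpG-rich promoters of developmental regulators. Kdm6b (Jmjd3) is a demethylase that removes it.

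The data were H3K27me3 ChIP-seq peaks from fibroblasts of late embryonic mouse dermis, cultured in AmnioMAX. Kdm6b-cKO cells (replicates 3 and 4) carried Kdm6b fl/fl with Dermo1-Cre, which is driven by the Dermo1 (Twist2) promoter in dermal fibroblasts, and WT cells (replicates 7 and 9) were the controls; the comparison asked how loss of Kdm6b altered the mark. A sort for GFP is stated for every library, and Kdm6b-cKO mice die as neonates. The input library entered no comparison. The labels do not say whether the libraries came from separate embryos, so p-values measure only the spread between these libraries, and peak lists cannot check the deletion of Kdm6b itself.

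The libraries held 44077, 40565, 29841 and 22597 peaks on the autosomes and X (Kdm6b-cKO 3, Kdm6b-cKO 4, WT 7 and WT 9), covering 148, 124, 91.4 and 61.5 Mb. The study's methods state that the libraries were subsampled to like read number, and the peak lists do not hold the reads behind each peak. The covered length differed between libraries over the whole genome; its part in the differences below was not tested beyond the peak lists cut to equal length. None of the 12 fibroblast marker genes, such as Pdgfra, Col1a1 and Twist2, had a marked promoter in any library. Marked in at least 1 library were 4 of 5 keratinocyte, 1 of 4 endothelial, 2 of 4 immune and 2 of 4 melanocyte markers. So was 1 of 4 markers of olfactory sensory neurons (Omp), against 28.8% of all protein-coding genes. In all 4 libraries the numbers were 2, 1, 1, 1 and 0. Krt5, Krt14, Lyz2, Dct and Omp had 0% covered in both WT libraries, so their marks came from Kdm6b-cKO alone.

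The promoters of the family are poor in CpG, the dinucleotide that is dense at most Polycomb targets. The 250 bases upstream of the annotated TSS are shown in the transcribed direction with each CpG in capitals (GRCm38.p6, the reference of build mm10). Olfr1412 and Olfr1411 were covered over all 6000 bp in every library, Olfr462 and Olfr463 had the widest change between the groups, and Lhx2, a transcription factor that olfactory neurons need for receptor choice, is given as a fully covered promoter of the usual kind.
Olfr1412 (chr1:92585529-92585778, plus strand): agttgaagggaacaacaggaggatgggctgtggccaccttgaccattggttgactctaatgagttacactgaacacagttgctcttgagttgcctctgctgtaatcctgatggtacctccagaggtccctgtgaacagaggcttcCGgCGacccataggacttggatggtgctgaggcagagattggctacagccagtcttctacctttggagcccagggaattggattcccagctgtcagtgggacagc
Olfr1411 (chr1:92594161-92594410, plus strand): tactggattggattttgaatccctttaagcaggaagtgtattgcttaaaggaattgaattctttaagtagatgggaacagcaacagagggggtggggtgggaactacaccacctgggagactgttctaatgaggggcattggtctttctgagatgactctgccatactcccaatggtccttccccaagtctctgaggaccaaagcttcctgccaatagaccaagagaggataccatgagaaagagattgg
Olfr462 (chr11:87892269-87892518, minus strand): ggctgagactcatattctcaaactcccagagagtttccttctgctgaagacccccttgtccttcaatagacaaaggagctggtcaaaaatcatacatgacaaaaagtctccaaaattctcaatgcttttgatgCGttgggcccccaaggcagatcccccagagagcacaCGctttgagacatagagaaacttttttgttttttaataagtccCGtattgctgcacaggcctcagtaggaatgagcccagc
Olfr463 (chr11:87897388-87897637, minus strand): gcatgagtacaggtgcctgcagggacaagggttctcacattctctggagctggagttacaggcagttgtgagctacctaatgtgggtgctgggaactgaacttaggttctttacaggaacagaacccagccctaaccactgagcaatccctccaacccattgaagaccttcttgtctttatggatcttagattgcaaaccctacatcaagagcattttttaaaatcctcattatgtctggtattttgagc
Lhx2 (chr2:38339031-38339280, plus strand): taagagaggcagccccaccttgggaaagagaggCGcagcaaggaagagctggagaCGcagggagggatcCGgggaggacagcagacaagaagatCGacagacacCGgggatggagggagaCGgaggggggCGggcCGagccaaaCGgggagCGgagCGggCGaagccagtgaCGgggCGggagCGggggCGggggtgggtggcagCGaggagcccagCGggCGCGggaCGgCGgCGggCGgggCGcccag
These stretches hold 2 CpG in Olfr1412, 0 in Olfr1411, 3 in Olfr462, 0 in Olfr463 and 25 in Lhx2. All 5 are upstream of the gene as GENCODE M21 annotates it. The upstream sequence of Olfr222, the other gene covered over 6000 bp in every library, is a run of A and G triplets and also holds 0 CpG.

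The mark fell on the Olfr genes unevenly over libraries. A promoter was marked in Kdm6b-cKO 3 for 45 Olfr genes, in Kdm6b-cKO 4 for 49, in WT 7 for 32 and in WT 9 for 19, which is 4.14, 4.51, 2.95 and 1.75% of the family. The share of other genes with a marked promoter fell in nearly the same order, from 27.6 and 26.1% in Kdm6b-cKO to 20.6 and 17.1% in WT. Olfr promoters made up 0.0981, 0.107, 0.109 and 0.112% of all covered sequence, so that their part of the total was no larger in Kdm6b-cKO than in WT. At 13, 7, 26 and 38 of the 60 promoters there was no covered base at all, and the TSS itself lay inside a peak at 29, 30, 18 and 15 of them.

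**Figure D1:**
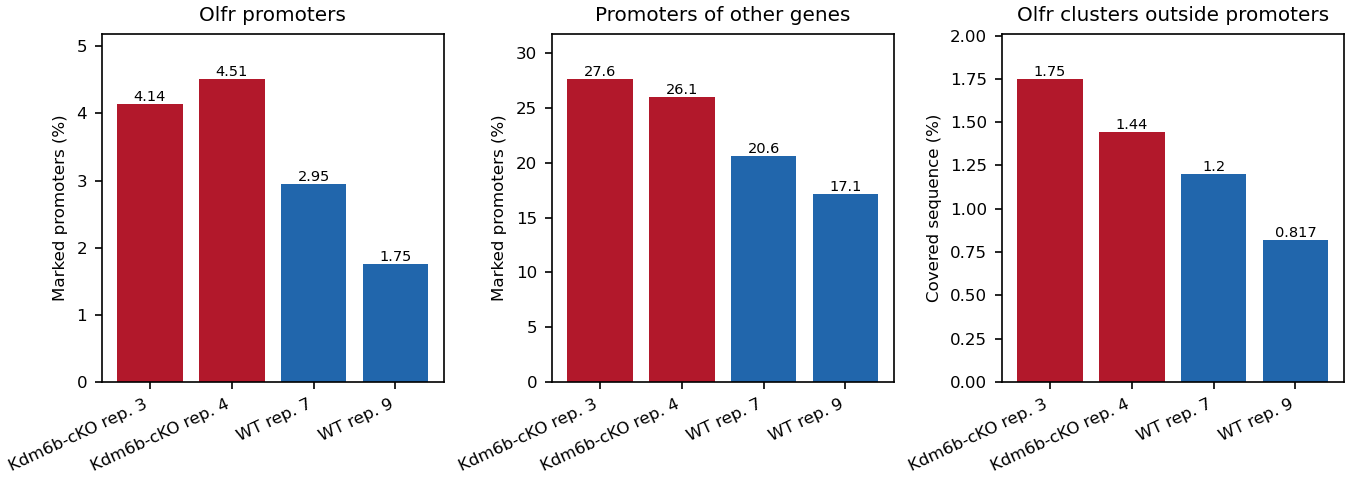
Share of Olfr promoters marked (left), share of promoters of all other genes marked (middle) and share of Olfr cluster sequence outside promoters covered by peaks (right), in percent, in each of 4 libraries (bars; Kdm6b-cKO red, WT blue). All 3 shares are higher in both Kdm6b-cKO libraries than in both WT libraries, with WT 9 lowest (1.75, 17.1 and 0.817%).

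Marked in all 4 libraries were 18 of the 60 promoters, or 30%, against 52.7% of the 6251 marked promoters of the genome. They were Olfr1416, Olfr1415, Olfr1414, Olfr1413, Olfr1412, Olfr1411 and Olfr1410 on chromosome 1, Olfr159 and Olfr155 on chromosome 4, Olfr1371, Olfr222, Olfr223 and Olfr463 on chromosome 11, Olfr1367 on chromosome 13, Olfr750 and Olfr221 on chromosome 14, and Olfr94 and Olfr95 on chromosome 17. Marked in both Kdm6b-cKO libraries and in no WT library were 13 promoters, or 21.7%, against 14.9% genome-wide. These were Olfr368, Olfr71, Olfr545, Olfr547, Olfr522, Olfr524, Olfr374, Olfr312, Olfr311, Olfr412, Olfr462, Olfr464 and Olfr281. The opposite pattern, both WT and no Kdm6b-cKO library, occurred for 0 Olfr promoters and for 0.24% of all marked promoters.

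The other 29 had mixed patterns. Both Kdm6b-cKO libraries and WT 7 marked 7 (Olfr12, Olfr156, Olfr557, Olfr372, Olfr1395, Olfr1375 and Olfr279), and both Kdm6b-cKO libraries and WT 9 marked 1 (Olfr288). Kdm6b-cKO 4 and WT 7 shared 2, Olfr70 and Olfr1359. A single library marked 19 promoters: Kdm6b-cKO 3 had 6 (Olfr211, Olfr1358, Olfr1382, Olfr1381, Olfr1380 and Olfr1378), Kdm6b-cKO 4 had 8 (Olfr373, Olfr9, Olfr1396, Olfr1377, Olfr322, Olfr286, Olfr283 and Olfr1417), and WT 7 had 5 (Olfr1016, Olfr215, Olfr969, Olfr1366 and Olfr282). Promoters marked in 1 library were thus 31.7% of the Olfr set and 15.6% of all marked promoters.

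The members just inside the length limit were weakly covered. Olfr1366 reached 529 bp and Olfr215 556 bp, both in WT 7 alone, and Olfr283 reached 584 bp in Kdm6b-cKO 4 alone. Just outside were Olfr556 with 474 bp in Kdm6b-cKO 4, Olfr370 with 459 bp in WT 9 and Olfr49 with 425 bp in Kdm6b-cKO 3. The values on either side of the limit differ little, so the weakest members and the strongest nonmembers are alike in covered length.

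Peaks over the promoters marked in all 4 libraries were long. Their median length was 6.71, 5.32, 5.40 and 3.24 kb in Kdm6b-cKO 3, Kdm6b-cKO 4, WT 7 and WT 9, which placed them at the median at percentiles 87.8, 85.2, 85.2 and 77.2 of peak length in their library. Their median percentile by −log10 q was 89.8, 87.9, 87.6 and 67.8. Peaks over promoters marked in 1 to 3 libraries were shorter, with medians of 1.62, 1.30, 0.741 and 0.333 kb, and stood at the median at percentiles 47.2, 36.9, 36.2 and 7.79 by −log10 q. Covered length formed these groups, so the order of peak lengths follows in part from the rule. Peaks too short to mark a promoter were included, and the WT 9 values rest on 4 peaks of 0.266 to 0.811 kb.

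One domain held the strongest members. All 8 Olfr genes of a small cluster on chromosome 1 (Olfr1416 to Olfr12, chr1:92475925-92623412) had a marked promoter, 7 of them in every library. The peaks began within 125 bp of each other in the 4 libraries, at 1.80, 1.74, 1.67 and 1.71 kb from the TSS of Ndufa10, a gene for a subunit of mitochondrial complex I. They ended 8.99, 10.1, 9.15 and 10.0 kb before the TSS of Cops9, a gene for a component of the COP9 signalosome, and the 4 ends lay within 1153 bp. Between these edges, 92.5% of 157 kb was covered in Kdm6b-cKO 3, 82.6% in Kdm6b-cKO 4, 90.6% in WT 7 and 73.7% in WT 9. The outer edges were thus close in all libraries, while the domain was broken into 7, 18, 9 and 21 peaks.

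Within that domain a single peak of 59.2 kb in Kdm6b-cKO 3 and of 60.1 kb in WT 7 spanned Olfr1413, Olfr1412, Olfr1411 and Olfr1410. In Kdm6b-cKO 4 and WT 9 peaks of 30.9 and 33.3 kb spanned the last 3 of these. Promoter coverage of Olfr1416 was 100, 91.7, 91.6 and 79.2% and that of Olfr1414 was 100, 91.7, 80.4 and 64.4%, with both Kdm6b-cKO above both WT libraries. Olfr1415 had the reverse order (82.6 and 88.4% against 100 and 90.3%), and Olfr1413 overlapped between groups (100 and 89.5% against 100 and 83.03%). Olfr12, the last gene of the row, was the weakest (49.2, 27.6, 36.4 and 0%), and a gap in the peaks lay before its TSS in every library. The 8 promoters supplied 30.6, 31.5, 42.2 and 52.7% of the covered length of the 60 promoters in the 4 libraries.

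The flanks, from 3 to 25 kb on both sides of the TSS, leave out the gene's own promoter window. They can still hold the windows that chose neighbouring members. Over the chromosome 1 genes their coverage was high in both groups and overlapped between them for all 8. Olfr1412 had 44 and 38.1 kb of its 44 kb of flank covered in the knockout libraries, against 42.1 and 35.4 kb in the WT libraries, a difference of 2.28 ± 3.45 kb (limma, SE, adjusted p = 0.67, n = 2 per group). Olfr1416 differed by -0.23 ± 1.84 kb (adjusted p = 0.93). The standard errors of the 8 genes, from 1.71 to 4.34 kb, are wide beside these differences.

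**Figure D2:**
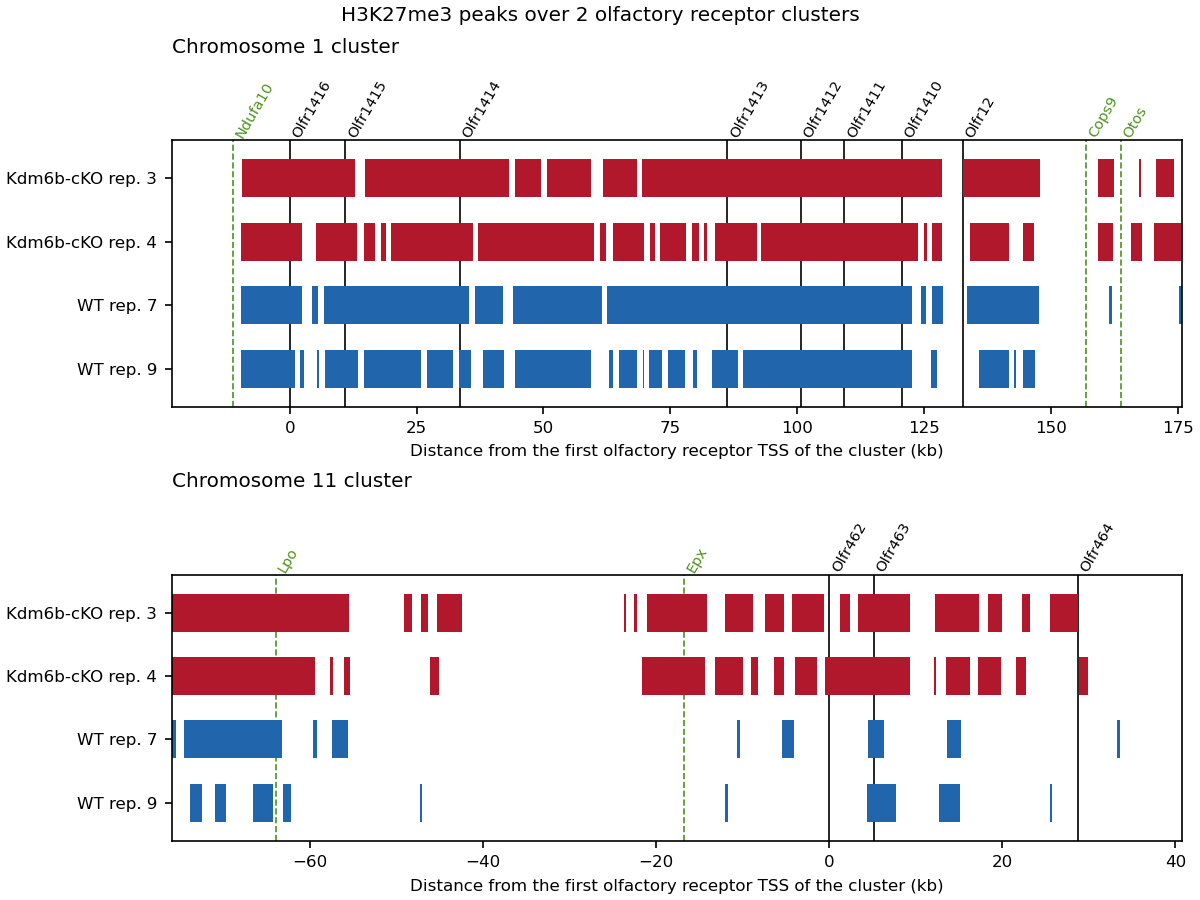
H3K27me3 peaks (bars) in Kdm6b-cKO (red) and WT (blue) libraries over the chromosome 1 cluster (top) and the Olfr462 to Olfr464 cluster of chromosome 11 (bottom), against distance in kb from the first Olfr TSS of the cluster. Solid lines are Olfr TSSs and dashed lines those of neighbouring genes. The chromosome 1 domain has the same edges in all 4 libraries, and the chromosome 11 domain around Epx and Olfr462 is broken into a few short peaks in WT.

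A smaller domain of the same kind covered Olfr222 and Olfr223 (chr11:59570255-59593289), where 94.6, 88.4, 100 and 76.2% of the cluster lay in peaks. Olfr222 was covered over the full promoter in all 4 libraries, under peaks of 27.7, 24.7, 30.2 and 18.1 kb, and Olfr223 had 59.6, 25.4, 69.4 and 8.92% of its promoter covered. Neither neighbour of this cluster, Nlrp3 or Mprip, had a marked promoter. On chromosome 14 Olfr221 was covered at 92.6, 93.0, 92.4 and 82.3% of its promoter, alone among the 8 Olfr genes of its cluster. Olfr95 (69.8, 53.7, 61.2 and 62.8%) and Olfr94 (67.4, 13.2, 47.7 and 42.4%) were the only 2 of 46 genes of a chromosome 17 cluster.

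In the flanks, 7 of the 54 tested members (12.96%) were called higher in Kdm6b-cKO by limma at an adjusted p under 0.05 (Benjamini-Hochberg over all genes), and 7.4% of the 11272 genes tested were. The other 6 members had under 500 bp of flank covered in every library. No member was called lower, nor was any of the 11272 genes (0%), and an unadjusted p under 0.05 was reached by 23 members with a higher value (42.6%, against 33.1% of all genes) and by 0 with a lower one. Both Kdm6b-cKO libraries lay above both WT libraries for 37 of the 54 members (68.5%), against 63.5% of all genes tested, and below for 0, against 1.78%. The median difference was 2.66 kb over the members and 2.21 kb over all genes. The 7 calls lie in 4 clusters, where neighbouring genes share much of their flanks, and no test of these shares was run. Some of these flanks also hold promoter windows that chose other members. The 7 calls thus rest partly on the coverage that chose the genes, and nothing is read from their number. Without Kdm6b-cKO 3, Kdm6b-cKO 4 or WT 9 there were 0 calls among the members and 0 over all genes (19, 24 and 8 members had an unadjusted p under 0.05), and without WT 7 there were 3 calls among the members. With the peak lists cut to an equal covered length, 0 of 37 members were called higher and 1 lower. Of all 7973 genes then tested, 93 (1.17%) were called higher and 62 lower, so nothing is read from these member counts.

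The widest change in the peak lists as deposited was over Olfr462, Olfr463 and Olfr464, the whole of a cluster on chromosome 11 (chr11:87884979-87920967). For Olfr463 peaks took up 27.7 and 24.7 kb of flank in the Kdm6b-cKO libraries against 3.34 and 3.06 kb in the WT ones, a difference of 23.0 ± 1.29 kb (limma, adjusted p = 0.027). That of Olfr462 was 27.8 and 26.4 kb against 5.16 and 6.16 kb, a difference of 21.4 ± 0.87 kb (adjusted p = 0.023). That of Olfr464 was 18.3 and 15.1 kb against 6.39 and 7.06 kb, a difference of 9.99 ± 1.39 kb (adjusted p = 0.048). The groups did not overlap at any of the 3 genes, whose flanks overlap each other and hold parts of each other's promoter windows. With the peak lists cut to an equal covered length these differences shrank to 0.97, 2.19 and 1.12 kb (limma, adjusted p = 0.73, 0.58 and 0.74) for Olfr463, Olfr462 and Olfr464.

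Promoter coverage at these genes is given as a description. Olfr462 and Olfr464 entered the set only through Kdm6b-cKO, so nothing is read from the direction of their promoter values. At Olfr462 the 2 Kdm6b-cKO libraries covered 57.2 and 83.2% of the promoter window against 0% in both WT libraries, the largest difference of the 60 at 70.2 points. Olfr464 had 50.6 and 16.8% against 0 and 0.30%, and Olfr463, covered in every library, had 83.9 and 100% against 30.4 and 56.1%. Over the whole cluster 65.7 and 56.1% of the sequence lay in peaks in Kdm6b-cKO and 13.6 and 16.8% in WT.

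On one side of this cluster lie genes for peroxidases of granulocytes and secretions, and on the other, 66.6 kb away, Dynll2, a dynein light chain gene whose promoter was not marked. Epx, eosinophil peroxidase, whose TSS is 16.7 kb from the cluster, had a promoter covered at 91.8% on average in Kdm6b-cKO and at 0% in WT (difference 91.8 ± 2.196 points, limma, adjusted p = 0.013). Its promoter window lies wholly inside the flanks of Olfr462 and Olfr463, whose TSSs are 16.7 and 21.9 kb away. The Epx value therefore shares peaks with the flank differences above and is no separate result. Lpo, lactoperoxidase, had 100% against 59.2% (difference 40.8 ± 2.48 points, adjusted p = 0.029), and Mpo, myeloperoxidase, had 88.9% against 16.9%, which did not pass the test (difference 71.9 ± 17.9 points, adjusted p = 0.16). Lpo and Mpo were named after their values were seen.

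The other 4 genes called on their flanks lay in 3 small clusters. Olfr279, at the end of a chromosome 15 cluster, had 13.3 and 13.6 kb of flank covered in the knockout libraries, against 2.81 and 2.41 kb in the WT libraries, a difference of 10.8 ± 0.63 kb (adjusted p = 0.027). Olfr1378 had 11.9 and 9.55 kb against 3.16 and 2.3 kb (difference 7.99 ± 1.12 kb, adjusted p = 0.048), and Olfr1375 of the same chromosome 11 cluster had 6.54 and 6.37 kb against 1.86 and 1.18 kb (difference 4.94 ± 0.65 kb, adjusted p = 0.045). Olfr70 on chromosome 4 had 4.35 and 5.06 kb against 0 kb in both WT libraries (difference 4.70 ± 0.65 kb, adjusted p = 0.048). Of this, 4.04 kb in Kdm6b-cKO 3 and all 5.06 kb in Kdm6b-cKO 4 were the peak that marked Olfr71. That gene entered the set only through Kdm6b-cKO, so nothing is read from the call of Olfr70. At the promoter itself Olfr70 and Olfr1378 did not follow this order: Olfr70 was covered at 0 and 8.93% against 19.3 and 0%, and Olfr1378 at 13.0 and 0% against 0% in both WT libraries.

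**Figure D3:**
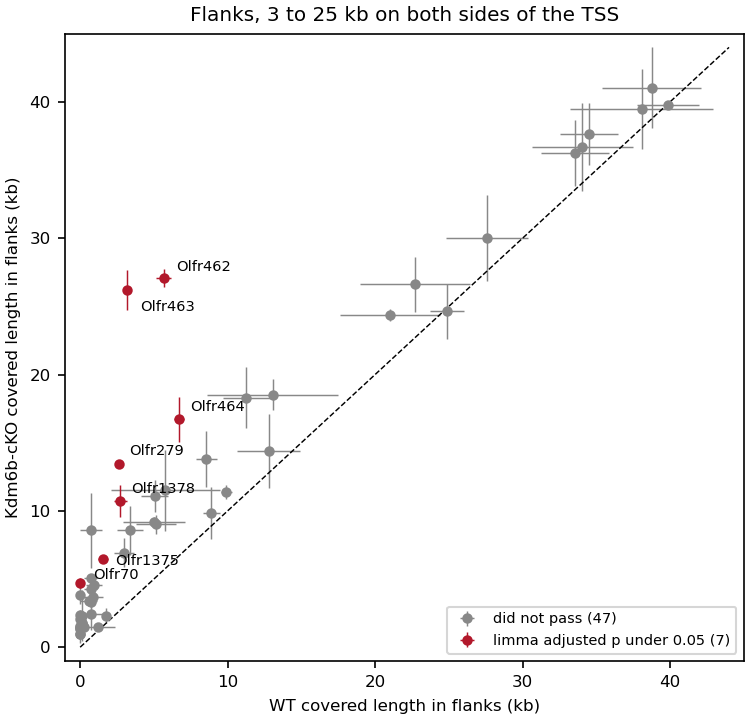
Covered length in the flanks of 54 marked Olfr genes (points; mean of 2 libraries, bars from the lower to the higher library), WT on the x axis and Kdm6b-cKO on the y axis, in kb. Points on the dashed line have equal means; the 7 red genes passed limma at an adjusted p under 0.05, and the chromosome 1 genes at the upper right lie near the line.

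At the promoters, the window that chose the genes, limma called 6 of 60 members higher in Kdm6b-cKO and 7.93% of the 6251 marked promoters. Of the 6, Olfr524, Olfr311 and Olfr281 entered the set only through Kdm6b-cKO, so nothing is read from this count. It called 0 members lower (1 had an unadjusted p under 0.05), against 0.096%. Both Kdm6b-cKO libraries lay above both WT libraries for 30 members, against 49% of all, and below for 2, Olfr1415 and Olfr1367, against 2.42%. The mean was higher in Kdm6b-cKO for 45 members (75%, against 78.6% of all marked promoters), lower for 12 and equal for 3. The 6 were Olfr1410 (100% in both Kdm6b-cKO libraries, 84.1 and 82.9% in WT), Olfr156 (32.4 and 37.7% against 8.95 and 6.63%), Olfr524 (24.4 and 24.6% against 0%), Olfr311 (12.9 and 11.8% against 0%), Olfr288 (68.0 and 70.7% against 0 and 13.5%) and Olfr281 (19.4 and 19.9% against 0%). The count was 18 without Kdm6b-cKO 3, 17 without Kdm6b-cKO 4, 2 without WT 7 and 0 without WT 9, when 20.4, 22.9, 6.73 and 0% of all marked promoters were called higher.

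Several large promoter differences did not pass. Olfr412, on chromosome 11, was covered at 80.3 and 60.6% in Kdm6b-cKO and at 5.22 and 0% in WT, and Olfr522 on chromosome 7 at 63.4 and 40.6% against 0% in both. Olfr155 was full in both Kdm6b-cKO libraries and at 91.0 and 28.3% in WT. Olfr279 had 50.7 and 52.7% against 12.7 and 0%. In the other direction, Olfr1367 had 29.2 and 22.9% against 37.9 and 38.0%, and Olfr1359 had 0 and 19.0% against 41.97 and 0%, where the groups overlap.

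Little of the cluster sequence outside the promoters carried the mark. Joining Olfr genes up to 500 kb apart gave 52 clusters. Their 23.2 Mb outside the promoter windows of all protein-coding genes held 406 and 335 kb of peaks in the knockout libraries, against 279 and 189 kb in the WT libraries. The group values were 370 ± 50.03 and 234 ± 63.4 kb (mean ± SD, n = 2 each), a ratio of 1.58, against 1.78 for all peaks of the genome. An exact permutation test, two-sided, gave p = 0.33, the smallest that 2 against 2 libraries allow. Only 1.75, 1.44, 1.20 and 0.817% of the 23.2 Mb was covered.

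Marked genes were found mostly in small clusters and near cluster edges, and a gene of a small cluster is always near an edge. Clusters of 2 to 9 genes held 34 marked genes among 91 (37.4%), clusters of 10 to 49 held 19 among 431 (4.41%), clusters of 50 or more held 7 among 555 (1.26%), and none of 9 lone genes was marked. In the largest cluster, 217 genes on chromosome 2, the only marked promoter was that of Olfr1016, in 1 library. Every gene was marked in 4 clusters, on chromosome 1 (8 genes), chromosome 8 (Olfr372, Olfr373 and Olfr374) and chromosome 11 (Olfr222 and Olfr223; Olfr462 to Olfr464), and 28 clusters had no marked gene. On chromosome 16, 0 of 35 genes were marked, and on chromosome 2, 2 of 280.

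First and last genes of a cluster were marked in 28 of 95 cases (29.5%), genes 1 to 4 places from the edge in 27 of 235 (11.5%), and genes 5 or more places inside in 5 of 756 (0.661%). No gene of a cluster of 2 to 9 lies 5 or more places inside. These shares were not split by cluster size, so place and size cannot be told apart here. The median distance to the nearest protein-coding gene outside the family was 28.1 kb for marked and 152 kb for unmarked Olfr genes. Over the pooled genes of the 24 clusters that hold a marked gene the medians were 28.1 and 156 kb. This pools small and large clusters, and distances were not compared within single clusters. Within 50 kb of such a gene 45 of 231 Olfr genes were marked (19.5%), and beyond it 15 of 855 (1.75%). These counts describe position, and no test was run, since genes of a cluster share their peaks.

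The neighbour itself was often unmarked. The nearest outside gene had a marked promoter for 28 of the 60 (46.7%) and for 88 of the 1026 unmarked Olfr genes (8.58%). A single peak joined an Olfr promoter to that of an outside gene for 4 members. Olfr1416 shared its peak with Ndufa10 in all 4 libraries (22.4, 12.02, 12.1 and 10.6 kb), and Olfr1415 lay under the same peak in Kdm6b-cKO 3. Olfr522 shared a peak of 12.4 kb with Sprn, the shadow of prion protein gene, in Kdm6b-cKO 3, and Olfr94 shared one of 6.71, 1.87 and 1.82 kb with Ubd, the ubiquitin D gene, in both Kdm6b-cKO libraries and WT 7. Sprn was covered at 95.1% of its promoter in Kdm6b-cKO and 65.4% in WT (adjusted p = 0.22) and Ubd at 18.2 and 4.56% (adjusted p = 0.45), neither of which passed limma.

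**Figure D4:**
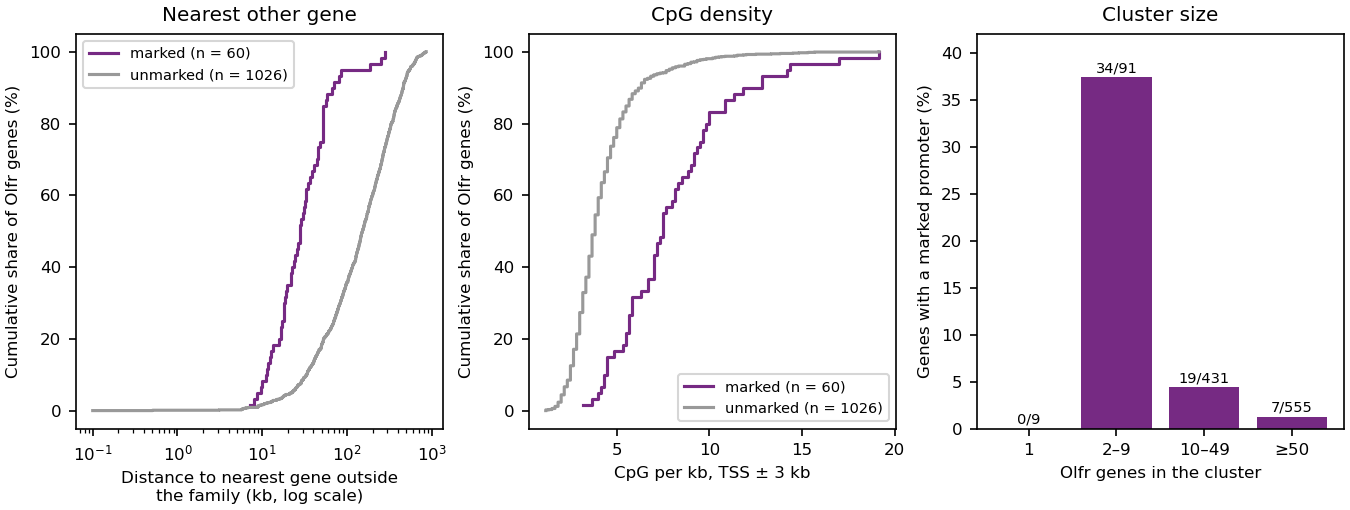
Cumulative share (%) of marked (purple) and unmarked (grey) Olfr genes against distance to the nearest gene outside the family (left, kb, log scale, smaller values drawn at 0.1) and against CpG per kb within 3 kb of the TSS (middle), and share of genes marked by cluster size (right, bars with counts). Marked genes lie nearer to other genes (median 28.1 against 152 kb) and in sequence with more CpG (7.5 against 3.83 per kb), and the share is highest in clusters of 2 to 9 genes.

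Marked Olfr promoters also differed in base composition from unmarked ones. Within 3 kb of the TSS they held a median of 7.5 CpG per kb (quartiles 5.67 and 9.54) against 3.83 (3 and 4.83), and 43.7% GC against 36.5%. Promoters marked in all 4 libraries held 8.25 CpG per kb. Unmarked Olfr genes within 50 kb of an outside gene held 4.75 CpG per kb and 39.2% GC, between both groups, so position and composition go together. Marked promoters of other genes held 19.2 CpG per kb and 49.1% GC, so the marked Olfr promoters remained poor in CpG beside them. In the chromosome 1 cluster the 8 promoters held from 5.5 to 10.8 CpG per kb, and the Lhx2 promoter held 26.7. Olfr462 held 17.0 CpG per kb, and its neighbours Olfr463 and Olfr464 held 8.17 and 7.

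In the 250 bases upstream, 28.3% of marked, 45.2% of unmarked Olfr genes and 7.53% of all protein-coding genes had no CpG. A pair of motifs was searched there on both strands, and their matches are letters and not sites. TAATTA, the core that homeodomain factors such as Lhx2 bind, was present upstream of 16.7% of marked and 23.1% of unmarked Olfr genes and of 4.91% of all genes. TATAAA was present in 6.67, 30.8 and 11.5%, with the lower GC content of the unmarked genes beside it.

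Among genes that act around the receptors in olfactory neurons, 26 of 56 listed had a marked promoter and 18 in all 4 libraries. Of all 21728 protein-coding genes 28.8% were marked, and 3293 in all 4 libraries. None of the 26 passed limma in either direction, where 7.93% of all marked promoters were called higher and 0.096% lower. Nothing is read from the absence of calls among so few genes. The regulators of receptor choice and of the neuronal lineage were marked most evenly: 9 of 17 were marked, all 9 in every library. Among them Lhx2, Ebf2, Ebf3, Neurog1 and Neurod1, all transcription factors of neurogenesis or receptor choice, reached 100% promoter coverage in each of the 4 libraries, and Ebf4 (39.8 and 65.8% against 34.7 and 19.8%) less. Of the signal transduction genes 8 of 15 were marked. Slc24a4, an ion exchanger, had 100, 88.1, 93.8 and 100%, and Cngb1, a subunit of the cyclic nucleotide-gated channel, had 69.2% in both Kdm6b-cKO libraries against 48.4 and 31.6% (adjusted p = 0.17). Ano2, the chloride channel of the transduction current, had 65.98 and 64.5% against 19.0 and 34.8% (adjusted p = 0.11).

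Receptor trafficking genes were marked in 3 of 4 cases. Reep1 had 42.4 and 58.7% against 0% in both WT libraries (difference 50.5 ± 7.24 points, limma, adjusted p = 0.080), and Rtp1, which brings receptors to the cell surface, had 56.1 and 10.8% against 0% (adjusted p = 0.46). Of the neuron maturity and axon genes 4 of 13 were marked: Kirrel2 was full in every library, Kirrel3 had from 47.6 to 48.9%, Epha5 had 59.1 and 66.1% against 48.9 and 49.9%, and Omp, olfactory marker protein, had 16.9% in Kdm6b-cKO 4 alone. Of the odorant binding genes 2 of 7 were marked, with Obp2b at 62.4 and 43.5% against 0.10 and 0% (adjusted p = 0.090). The promoters of Adcy3, Cnga4 and Stoml3, which act in the same cilia, were not marked.

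Other chemosensory receptor families ranged widely. Of the vomeronasal receptors, Vmn1r1 alone was marked among 206 Vmn1r genes (0.485%), in all 4 libraries, and 0 of 119 Vmn2r genes were. The trace amine-associated receptors had 2 of 15 marked (Taar6 and Taar7b), 1 in WT 7 and 1 in WT 9, the formyl peptide receptors 3 of 7 (Fpr1, Fpr2 and Fpr3, in Kdm6b-cKO 3), and the bitter taste receptors 1 of 35 (Tas2r144). Sweet and umami receptors had 1 of 3 marked (Tas1r2). The marks on Tas2r144 and Tas1r2 were in Kdm6b-cKO 3 alone.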

How the data were processed

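H3K27me3 ChIP-seq of 2 Kdm6b-cKO and 2 WT fibroblast libraries was used. According to the study's methods and the submitters' processing notes, the authors aligned reads with Bowtie2 2.3.5.1 to mm10, used SAMtools 1.9, subsampled libraries to like read number and called broad peaks per library with MACS2 2.2.7.1. Handling of reads that map to several places is not given in the sources used here, nor is use of the input in peak calling; Olfr genes are a multigene family, so coverage at close copies is uncertain. The deposited peak lists give positions, a score, a fold enrichment (ratio) and −log10 p and q values, but hold no counts of reads, and a depth cannot be given for a peak. Positions are used as deposited, and −log10 q ranks peaks.

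Genes were protein-coding GENCODE M21 genes, 1 per symbol (21728, autosomes and X). Covered length was measured in the TSS ± 3 kb and in flanks from 3 to 25 kb, and limma 3.58.1 (R 4.3.3; lmFit and eBayes, Benjamini-Hochberg threshold 0.05) compared the groups on the covered share of promoters marked in at least 1 library and on the covered length of flanks with at least 500 bp covered. The fits were tested on simulated data. Sequence came from GRCm38.p6, with numpy 2.4.6 and pandas 2.3.3 under Python 3.11.15 and scipy 1.17.1 for the exact test; figures used matplotlib 3.10.9.

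The members and the gene lists were chosen with earlier results of these data known. Named genes followed a rule: promoters marked in every library, those with the largest group differences, those called by limma, those next to the length limit, those sharing a peak with an outside gene, the cluster with the most members, and marked genes of the olfactory lists. Values of some listed genes are not reported here. The motif search and the edges of the chromosome 1 domain were added after the data were seen. Alternatives were other windows, minimum lengths and start sites, stricter or equalised peak lists, other cluster gaps, no filter, centring on the library mean, and leaving out each library.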

Additional observations from a re-analysis of the deposited data

How the results depend on the processing

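No paired analysis was possible because the groups share no replicate numbers. With 2 libraries per group and no depth, calls rest on few values: leaving out 1 library gave 52 to 60 marked Olfr promoters, 18 to 25 marked in every library, 14 to 21 in every Kdm6b-cKO and no WT library and 0 to 5 in the reverse, 0 to 18 members called higher and 0 to 1 lower at promoters, 0 to 3 higher and 0 lower at flanks, and a cluster difference of 91.1 to 181 kb.

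Peaks of a −log10 q of at least 4 left 22 marked Olfr promoters, 5 in every library and 1 in both Kdm6b-cKO and no WT library, 1 call higher each at promoters and at flanks, and a cluster difference of 59.7 kb. Of all genes tested, 13.7% of promoters and 7.02% of flanks were then called higher. Equal covered length left 24, 11 and 0, with 2 in both WT and no Kdm6b-cKO library, 1 promoter call higher and 1 lower, 0 flank calls higher and 1 lower, and reversed the cluster difference to -31.3 kb. Of all genes tested, 3.09% of promoters and 1.17% of flanks were then called higher. Called lower were 78 of 4304 promoters and 62 of 7973 flanks. The equal number of strongest peaks gave 6 in both Kdm6b-cKO and no WT library and 1 in the reverse, 1 promoter call higher and 1 lower, 3 flank calls and 68.4 kb. Of all genes tested, 6.35% of promoters and 3.56% of flanks were then called higher. Called lower were 16 of 5558 promoters and 2 of 10047 flanks. A minimum of 1500 bp, and a window of ± 1 kb, each gave 8 in both Kdm6b-cKO and no WT library. Without a filter there were 2 promoter and 1 flank calls, centring on the library mean gave 4 flank calls, flanks of 3 to 10 kb gave 2, gaps up to 1000 kb gave 261.7 kb, and leaving out clusters with a gene marked in all 4 libraries, chosen after seeing the data, gave 65.5 kb; this removes clusters already covered in WT, so nothing is read from it. Over all genes, 0.695% of promoters and 0.723% of flanks were called higher without a filter. Centring gave 12.2% of all flanks, and flanks of 3 to 10 kb gave 1.94%. Counting only marked outside genes as neighbours widened the difference in median distance from -124 to -587 kb. No cause of these changes was tested beyond what each alternative leaves out.

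Of the single calls, the flank difference reversed under equal covered length for Olfr1378 (-2.73 kb), Olfr1375 (-0.59 kb) and Olfr279 (-1.21 kb), and shrank for Olfr463 (0.97 kb), Olfr462 (2.19 kb) and Olfr464 (1.12 kb), and the promoter difference for Olfr156 (-7.79 points) and Olfr288 (-6.76 points); centring reversed Olfr1410 (-0.70 points) and Olfr311 (-4.88 points). Under the alternatives run for each, the 7 flank calls stayed past the threshold in 13 of 66 fits and the 6 promoter calls in 12 of 48. The differences in CpG and in distance to the cluster edge kept their direction under each alternative run.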

Other observations

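Olfr pseudogenes, which the 60 genes leave out, carried the mark at a like rate. Of 270 on the autosomes, 11 had a marked promoter (4.07%), and 2 were marked in all 4 libraries. Olfr1372-ps1, in the cluster of Olfr1371 on chromosome 11, was covered over all 6000 bp in every library, and Olfr29-ps1, beside Olfr159 on chromosome 4, had 6000 and 5404 bp covered in Kdm6b-cKO against 5097 and 1433 bp in WT. Others lay in clusters of members: Olfr546-ps1 had 2995 and 3166 bp against 1166 and 256 bp, and Olfr278-ps1, next to Olfr279, had 1537 and 2835 bp against 0 bp in both WT libraries. At Olfr334-ps1 the groups overlapped, with 1748 and 0 bp against 3830 and 1015 bp. Of the 6 Olfr genes on the X chromosome, 3 had a marked promoter.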
